A study of Mus musculus with 2 samples.

Results

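Toll-like receptors are membrane proteins that bind conserved molecules of microbes and debris of damaged cells. They were examined here in adrenal gland immune cells as a set of 9 genes picked by name: the surface receptors Tlr2 and Tlr4, the co-receptors Cd14 and Ly96, the endosomal receptors Tlr3, Tlr7, Tlr9 and Tlr13, and the adaptor Myd88. These are 9 of the 32285 genes in the deposited count tables. The study sequenced single CD45+ cells from adrenal glands of C57Bl/6 mice aged 7 weeks, with 1 library from females and 1 from males. The glands were digested with enzymes, and live cells were sorted as CD45+ and DAPI negative before droplet capture and 3′ sequencing. No genotype, allele or treatment separates the libraries, and the number of animals behind each is not given in the labels. With 1 library per sex there is no replicate, so every interval below is an exact 95% interval that covers counting error only, and no test was made.

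Surface Toll-like receptors mainly read bacterial lipids and lipoproteins, while the endosomal ones read nucleic acids. CD14 hands lipopolysaccharide to the complex of TLR4 and MD-2, the protein that Ly96 encodes. All mouse Toll-like receptors except TLR3 signal through MyD88, which recruits IRAK kinases and leads to NF-kB and interferon regulatory factors. In tissues, macrophages, monocytes, neutrophils and dendritic cells are the cells best known for these receptors.

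After filtering, 3694 female and 2449 male cells remained, holding 15045146 and 9035910 unique molecular identifiers (UMIs, the count of captured molecules), with a median of 3489.5 and 3008 per cell. Ptprc, which encodes CD45, had a UMI in 83.3% of female and 76.1% of male cells. Cells were placed in classes by canonical markers that included none of the 9 genes: 674 female and 677 male macrophages, 228 and 127 monocytes, and smaller numbers of dendritic cells and neutrophils beside B, T and NK cells. Macrophages were split into Lyve1-high (55 and 117 cells), Aldh1a2-high (90 and 103) and the remaining cells, called other macrophages (529 and 457). In every macrophage, monocyte, dendritic cell, neutrophil and lymphocyte class named here, all markers of its own list were detected in both libraries. The macrophage list, which holds the complement genes C1qa to C1qc, summed to 18244 and 18465 CPM (UMIs per 1000000 UMIs of the class) in other macrophages and to 3574 and 2425 CPM in Aldh1a2-high macrophages. The libraries shared 2 cell barcodes. No cell class was placed for 576 female and 458 male cells.

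All 9 genes had UMIs in both libraries, from 5 female and 9 male UMIs for Tlr9 to 768 and 575 for Cd14. Macrophages held 70.1% of the female and 72.0% of the male Cd14 UMIs, but 23.5% and 33.0% of those of Myd88. Levels are CPM within a class. They compare classes for the same gene and are not compared between genes. The share of cells with a UMI was taken after thinning every cell to 1000 UMIs, with T and NK cells as the background that free RNA would give. The median UMIs per cell before thinning were 3891 and 3655 in other macrophages, 4024 and 3911 in T cells and 4154 and 4875.5 in NK cells.

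Promoter windows of 250 bases before to 50 bases after the start were found for 5 of the 9 genes in the RefSeq table of GRCm38.p6. Shown are 3 receptors that were lower in Aldh1a2-high macrophages in both libraries, and Myd88, which was not. The windows are Tlr2 at chr3:83841559-83841858, Tlr3 at chr8:45410331-45410630 and Myd88 at chr9:119339969-119340268, all on the minus strand, and Tlr13 at chrX:106143025-106143324 on the plus strand. Each reads 5′ to 3′ along its gene, and capitals mark a motif match. The starts are those of RefSeq, and for these 4 genes they lie inside the gene as the GENCODE annotation used below places it.
Tlr2 promoter: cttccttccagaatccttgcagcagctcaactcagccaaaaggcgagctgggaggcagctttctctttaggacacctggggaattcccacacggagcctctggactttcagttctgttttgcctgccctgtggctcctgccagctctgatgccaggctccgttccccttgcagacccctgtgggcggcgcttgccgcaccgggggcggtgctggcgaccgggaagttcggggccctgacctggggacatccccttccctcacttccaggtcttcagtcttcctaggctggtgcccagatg
Tlr3 promoter: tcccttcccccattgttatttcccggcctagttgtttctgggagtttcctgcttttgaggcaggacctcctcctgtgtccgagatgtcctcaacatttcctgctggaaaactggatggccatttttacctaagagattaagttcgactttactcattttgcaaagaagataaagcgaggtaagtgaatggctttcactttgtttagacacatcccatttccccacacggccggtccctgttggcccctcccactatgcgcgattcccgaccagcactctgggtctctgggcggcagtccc
Tlr13 promoter: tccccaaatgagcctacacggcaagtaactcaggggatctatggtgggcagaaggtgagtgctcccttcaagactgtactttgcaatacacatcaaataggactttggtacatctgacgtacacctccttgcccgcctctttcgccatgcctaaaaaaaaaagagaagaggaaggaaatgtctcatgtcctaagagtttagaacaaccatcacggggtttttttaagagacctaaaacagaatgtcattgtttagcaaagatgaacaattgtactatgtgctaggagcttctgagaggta
Myd88 promoter: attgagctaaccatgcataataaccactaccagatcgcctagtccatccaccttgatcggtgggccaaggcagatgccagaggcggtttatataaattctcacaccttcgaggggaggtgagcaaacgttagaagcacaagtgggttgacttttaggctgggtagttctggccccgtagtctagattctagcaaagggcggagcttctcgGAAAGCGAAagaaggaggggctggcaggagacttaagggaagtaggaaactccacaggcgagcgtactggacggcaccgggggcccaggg
On both strands, 3 motifs were searched: AGGAAGT (ETS-like), GAAANNGAA (interferon-response-like) and GGAANNGAA (ETS-IRF-like). They occur in 9.35%, 8.56% and 8.24% of 32841 promoters of the same length. The Myd88 window held 1 interferon-response-like match, GAAAGCGAA, which begins 40 bases before the RefSeq start. The Tlr2, Tlr3 and Tlr13 windows held none of the 3, and the Tlr9 window, not shown, held 1 ETS-like match on its minus strand. A match is a string of letters, not a shown binding site.

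Tlr2, a receptor for bacterial lipoproteins that pairs with TLR1 or TLR6, lies at chr3:83836272-83841767 (GRCm38, minus strand). Its level in other macrophages was 93.3 CPM (81.2 to 107) in the female and 80.9 CPM (68.5 to 94.8) in the male library. It was 47.1 and 51.4 CPM in Lyve1-high macrophages, and 8.35 and 18.2 CPM in Aldh1a2-high macrophages. Aldh1a2-high cells thus stood below other macrophages in both libraries, with intervals that did not overlap, while Lyve1-high cells lay between them with intervals that reached those of other macrophages. Classical monocytes had 87.0 CPM in the female and 35.8 CPM in the male library, nonclassical monocytes 46.0 and 65.6 CPM, and neutrophils 76.6 and 31.2 CPM. The order of these 3 myeloid classes therefore differed between the libraries, and their intervals overlapped in each. In dendritic cells Tlr2 was at or below 33.3 CPM, and in B, T and NK cells at or below 5.14 CPM. After thinning, 8.45% of female and 9.16% of male other macrophages had a Tlr2 UMI, against 0% of T cells in both libraries and 0.282% and 0% of NK cells.

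Tlr4 (chr4:66827584-66930284, plus strand), the lipopolysaccharide receptor, had its highest level among macrophages and monocytes in Lyve1-high macrophages, at 67.3 CPM (32.3 to 124) in the female and 69.7 CPM (42.0 to 109) in the male library. Other macrophages had 38.5 and 42.6 CPM, and Aldh1a2-high macrophages 39.0 and 27.3 CPM. The intervals of these 3 classes overlapped in each library, and only 10 female and 19 male UMIs stand behind the Lyve1-high level. Without the 5 cells with most Tlr4 UMIs in each class, Lyve1-high macrophages had 29.8 and 35.2 CPM and other macrophages 33.8 and 37.4 CPM, so the order turned in both libraries. Those cells held 60.0% and 52.6% of the Lyve1-high sum but 13.6% and 13.8% of that of other macrophages. The removal weighs more on the smaller class, so it shows dependence on few cells and cannot set the order. Classical monocytes had 12.9 and 4.47 CPM, and nonclassical monocytes 30.6 and 5.47 CPM. T cells had no Tlr4 UMI in 651 female and 370 male cells, and B cells had 5.71 and 5.97 CPM.

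Cd14, the co-receptor that carries lipopolysaccharide to TLR4, had most of its UMIs in macrophages. Other macrophages had 215 CPM (197 to 235) in the female and 165 CPM (147 to 184) in the male library, and Lyve1-high macrophages 175 and 246 CPM. Aldh1a2-high macrophages had 55.7 CPM (34.0 to 86.0) and 84.2 CPM (59.3 to 116), below both other macrophage classes in each library. Classical monocytes had 45.1 and 85.0 CPM and nonclassical monocytes 10.2 and 10.9 CPM, so the nonclassical cells were the lowest of the macrophage and monocyte classes. The classical to nonclassical ratio was 4.42 (1.11 to 38.3) in the female and 7.77 (1.87 to 68.8) in the male library, from 2 nonclassical UMIs each. Type 2 dendritic cells had 50.4 and 72.2 CPM, while type 1 dendritic cells had no UMI in the female and 4 UMIs in the male library. B cells had no Cd14 UMI in 508 female and 259 male cells. The upper ends of the intervals for their share of cells with a UMI were 0.724% and 1.41%. After thinning, 18.3% and 14.5% of other macrophages had a Cd14 UMI, and at most 0.564% of T or NK cells.

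The neutrophil level of Cd14 came from few cells. It was 306 CPM in the female and 125 CPM in the male library, from 8 of 48 and 8 of 51 cells. The 5 cells with most Cd14 UMIs held 85.7% and 75.0% of the sum, and without them the level was 48.9 and 34.9 CPM. Genes that digestion is known to induce (Fos, Jun, Egr1 and 7 more, given as a summed level and named digestion-sensitive genes) were at 23612 and 29871 CPM in neutrophils, against 866 and 941 CPM in other macrophages, 2302 and 2139 CPM in Lyve1-high and 2194 and 3899 CPM in Aldh1a2-high macrophages. The part of digestion in these levels was not tested.

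Ly96 (chr1:16688051-16709611, plus strand) encodes MD-2, the lipid-binding partner of TLR4. Other macrophages had 65.7 CPM (55.6 to 77.1) in the female and 76.6 CPM (64.6 to 90.2) in the male library, Lyve1-high macrophages 74.0 and 125 CPM, and Aldh1a2-high macrophages 36.2 and 25.0 CPM. Unlike Cd14, it was present in B cells, at 26.9 CPM (19.7 to 35.7) and 31.3 CPM (19.4 to 47.9), above T cells at 7.03 and 7.79 CPM with intervals that did not overlap in either library. Classical monocytes had 48.3 and 31.3 CPM, and nonclassical monocytes had 4 female UMIs and no male UMI. The parts of the lipopolysaccharide complex were also counted cell by cell. Among other macrophages thinned to 1000 UMIs, 16 female and 19 male cells had a Tlr4 UMI, of which 1 and 6 also had a Cd14 UMI. This was 6.25% against 18.7% of female cells without a Tlr4 UMI and 31.6% against 13.6% of male cells, opposite directions in the libraries. Of 34 female and 33 male cells with a Ly96 UMI, 11 and 6 also had a UMI of Cd14, or 32.4% and 18.2%, against 17.3% and 14.1% of cells without a Ly96 UMI.

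**Figure D1:**
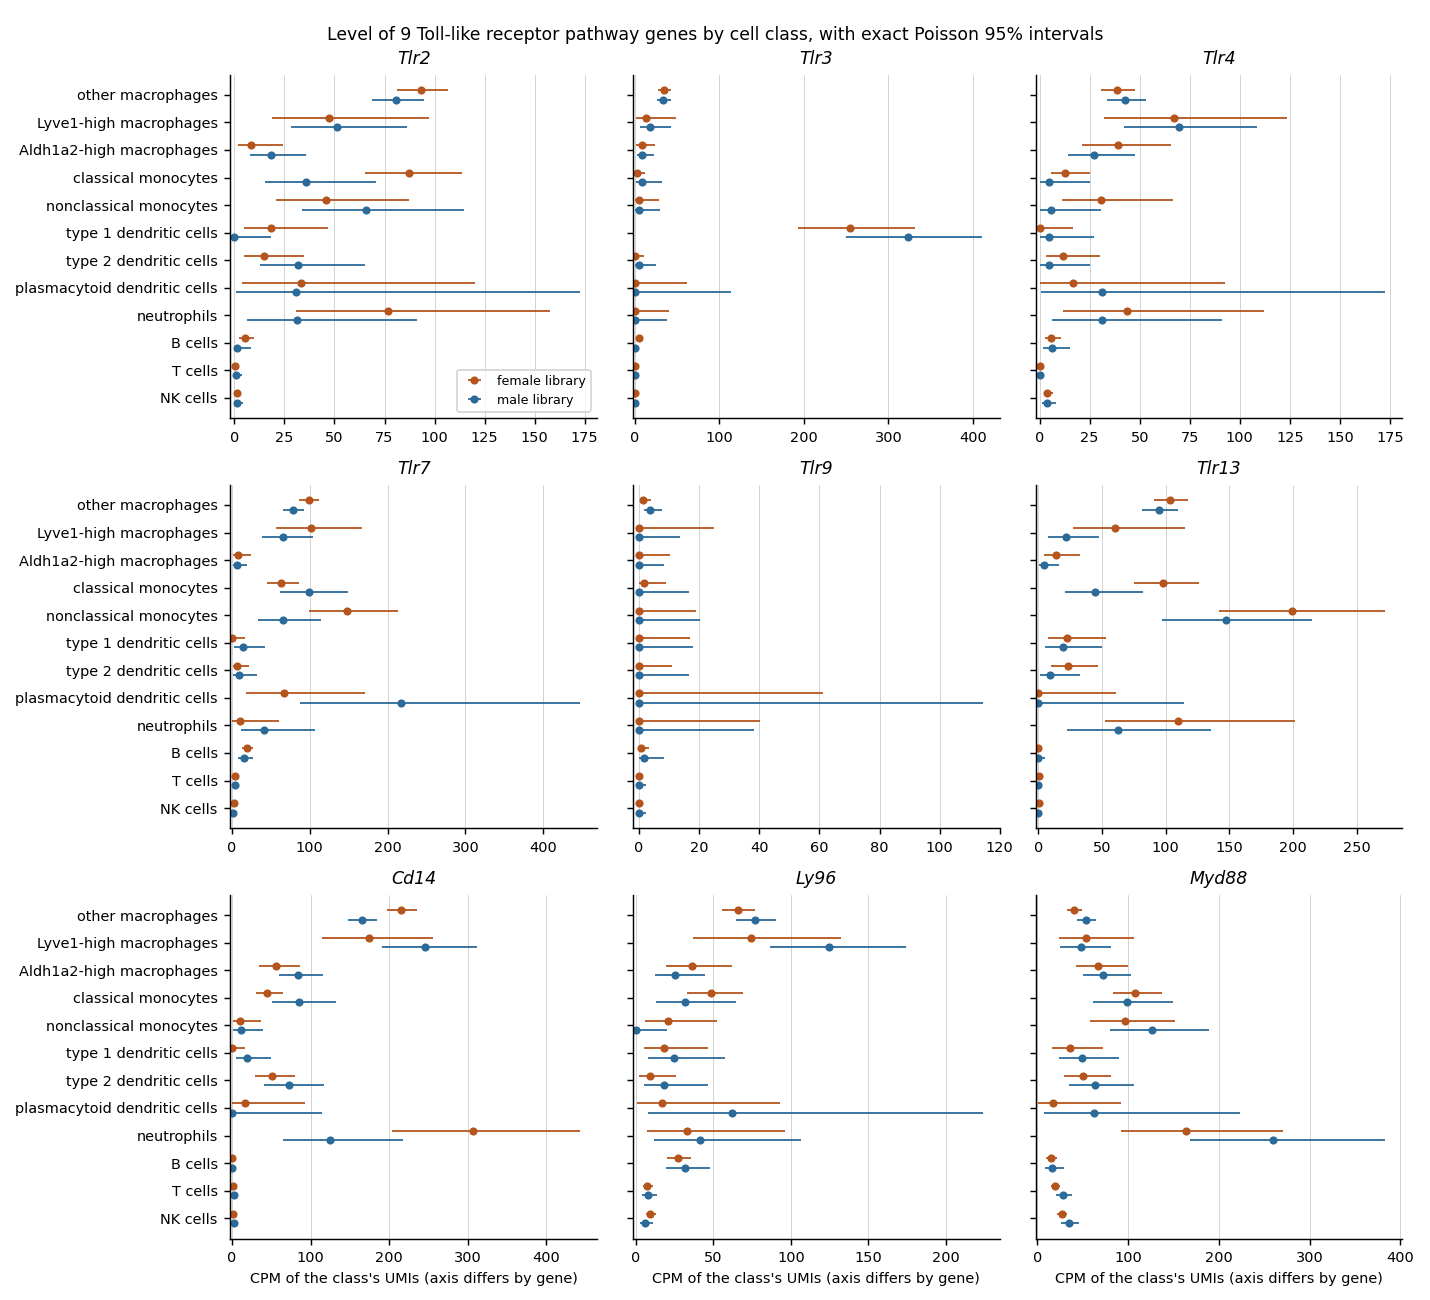
Level of each of the 9 genes by cell class in CPM of all UMIs of the class, with the female library in orange, the male library in blue, and exact Poisson 95% intervals as bars. The axis differs by gene and is not for comparison between panels. Tlr3 stands out in type 1 dendritic cells at 255 and 323 CPM. Tlr13 was highest in nonclassical monocytes at 199 and 148 CPM, with an interval that met that of other macrophages in the male library. Aldh1a2-high macrophages lie below other macrophages for Tlr2, Tlr3, Tlr7, Tlr13, Cd14 and Ly96.

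Tlr3 (chr8:45395665-45411080, minus strand), the receptor for double-stranded RNA, which signals through TRIF and not MyD88, was highest in type 1 dendritic cells, the cross-presenting dendritic cells. They had 255 CPM (193 to 331) in the female and 323 CPM (250 to 411) in the male library, from 56 and 66 UMIs. A UMI was seen in 26 of 41 and 23 of 38 of these cells, and in 25.0% and 30.6% of them after thinning. Type 2 dendritic cells, by contrast, had no UMI in 65 female cells and 1 UMI in 42 male cells. The type 2 to type 1 ratio was thus at most 0.0444 in the female library by the upper end of its interval and 0.0140 (3.48e-04 to 0.0805) in the male library. Other macrophages followed at 34.2 CPM (27.0 to 42.6) and 34.1 CPM (26.2 to 43.5), with both intervals below those of type 1 dendritic cells. Lyve1-high macrophages had 13.5 and 18.3 CPM and Aldh1a2-high macrophages 8.35 and 9.10 CPM. Monocytes had 3 UMIs in each library, and neutrophils, plasmacytoid dendritic cells and NK cells had none in either. The annotation places Gm45542 on the opposite strand of Tlr3, so reads of the pair can be told apart only where counting used strand.

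Tlr7 (chrX:167304929-167330558, minus strand), a receptor for single-stranded RNA, was found in other and Lyve1-high macrophages, in monocytes and in plasmacytoid dendritic cells. Other macrophages had 98.5 CPM (86.1 to 112) in the female and 78.2 CPM (66.1 to 92.0) in the male library, and Lyve1-high macrophages 101 and 66.0 CPM. Aldh1a2-high macrophages had 3 UMIs in each library, or 8.35 CPM (1.72 to 24.4) and 6.82 CPM (1.41 to 19.9). These were close to B cells at 19.4 and 14.9 CPM and T cells at 4.35 and 3.90 CPM. Nonclassical monocytes exceeded classical ones in the female library, at 148 CPM (99.2 to 213) against 62.9 CPM (44.7 to 85.9), and lay below them in the male library, at 65.6 CPM (33.9 to 115) against 98.4 CPM (61.7 to 149). The plasmacytoid dendritic cells, few in number, had 66.5 CPM (18.1 to 170) from 4 UMIs in 4 of 22 female cells and 217 CPM (87.2 to 447) from 7 UMIs in 2 of 10 male cells, where the interval takes no account of the spread between cells. Their 2 intervals overlap, and they overlap those of other macrophages. In conventional dendritic cells no class had more than 3 Tlr7 UMIs in a library.

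Tlr9 (chr9:106222598-106226883, plus strand), the receptor for unmethylated CpG DNA, was close to undetected. Other macrophages had 3 female and 7 male UMIs, or 1.31 and 3.73 CPM, B cells had 1 UMI in each library, female classical monocytes had 1, and 1 male UMI lay in a cell without a class. Plasmacytoid dendritic cells and B cells are the cell types best known for Tlr9, yet the 22 female and 10 male plasmacytoid dendritic cells had none. The upper ends of their intervals were 61.4 and 114 CPM, so a level up to these could have gone unseen.

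Tlr13 (chrX:106143204-106160493, plus strand), which reads a bacterial ribosomal RNA sequence, was highest in nonclassical monocytes in both libraries. They had 199 CPM (142 to 272) in the female and 148 CPM (97.3 to 215) in the male library, against 98.3 CPM (75.2 to 126) and 44.7 CPM (21.4 to 82.3) in classical monocytes. The classical to nonclassical ratio was 0.493 (0.325 to 0.758) and 0.303 (0.131 to 0.646), below 1 in both. After thinning, 20.9% of 67 female and 19.1% of 68 male nonclassical monocytes had a Tlr13 UMI. Other macrophages had 104 CPM (91.0 to 118) and 94.7 CPM (81.3 to 110), and their interval met that of nonclassical monocytes in the male library only. Without the 5 cells with most Tlr13 UMIs in each class, nonclassical monocytes had 146 and 77.9 CPM and other macrophages 96.7 and 87.4 CPM, so the order turned in the male library. Those cells held 38.5% and 51.9% of the nonclassical sum but 8.02% and 9.55% of that of other macrophages. The removal weighs more on the smaller class and cannot set the order. Neutrophils had 109 and 62.3 CPM, with intervals that overlapped those of nonclassical monocytes in both libraries. Lyve1-high macrophages had 60.6 and 22.0 CPM, and Aldh1a2-high macrophages 13.9 and 4.55 CPM. Both classes of conventional dendritic cells were at or below 23.7 CPM. The gene was close to absent from lymphocytes, with no UMI in B cells of either library and 3 UMIs in all female and none in all male T and NK cells.

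Myd88 (chr9:119335934-119341411, minus strand), the shared adaptor, had UMIs in every class named here, in both libraries. Neutrophils had 164 CPM (91.9 to 271) in the female and 260 CPM (168 to 383) in the male library, classical monocytes 108 and 98.4 CPM, and nonclassical monocytes 97.1 and 126 CPM. Other macrophages had 39.8 CPM (32.1 to 48.9) and 53.2 CPM (43.3 to 64.7). Aldh1a2-high macrophages, in which most of the receptors were low, had 66.8 CPM (42.8 to 99.4) and 72.8 CPM (49.8 to 103). T cells had 19.1 and 27.9 CPM, NK cells 26.6 and 35.1 CPM, and B cells 14.9 and 16.4 CPM. Taking all monocytes together and all macrophages together, the order from neutrophils through monocytes and macrophages to NK, T and B cells was the same in both libraries. Classical and nonclassical monocytes changed places between the libraries. The Aldh1a2-high interval held the nonclassical monocyte level in the female library and the classical monocyte level in the male library. However, the neutrophil interval overlapped those of monocytes, except for classical monocytes in the male library. The intervals of other macrophages and NK cells, of NK and T cells and of T and B cells also overlapped in both libraries. Without the 5 cells with most Myd88 UMIs in each class, neutrophils had 97.5 and 133 CPM, classical monocytes 92.3 and 59.7 CPM and nonclassical monocytes 57.9 and 89.2 CPM. The sum of digestion-sensitive genes was also highest in neutrophils and was 2936 and 4084 CPM in classical and 2615 and 3970 CPM in nonclassical monocytes, beside the values above for neutrophils and macrophages. Their part in the Myd88 levels was not tested. In the annotation Myd88 overlaps Slc22a14 on its own strand and Acaa1a on the other, so its counts are uncertain where reads fall in the overlap.

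Aldh1a2-high macrophages had lower levels than other macrophages of 6 genes: the receptors Tlr2, Tlr3, Tlr7 and Tlr13 and the co-receptors Cd14 and Ly96. A gene was called where both libraries passed 1.5-fold in the same direction, with at least 50 UMIs in 1 of the 2 sums compared. Of the 8 genes with enough UMIs (Tlr9 fell short in every comparison), 6 were called lower and none higher, against 19.2% of 4660 genes called lower and 12.1% called higher. All 8 passed the UMI minimum only through other macrophages, which held 2283811 and 1879026 UMIs against 359243 and 439601, so for the 6 this was the class in which they were higher and their count is a description. The ratio was 0.0848 (0.0174 to 0.251) in the female and 0.0872 (0.0178 to 0.260) in the male library for Tlr7, 0.134 (0.0432 to 0.317) and 0.0480 (0.00577 to 0.176) for Tlr13, and 0.0895 (0.0183 to 0.265) and 0.225 (0.0954 to 0.455) for Tlr2. Tlr3 had ratios of 0.245 and 0.267, Cd14 of 0.258 and 0.510, and Ly96 of 0.551 and 0.327, each with an interval below 1. The 2 exceptions were Tlr4, at 1.01 (0.531 to 1.79) and 0.641 (0.318 to 1.18), and Myd88, at 1.68 (1.02 to 2.65) and 1.37 (0.889 to 2.05). The median log2 ratio over the 8 genes was -1.71, and over all genes tested -0.11. In the female library 3504 of the 3563 UMIs of the B cell list in Aldh1a2-high cells came from 1 cell, which held 7.88% of the UMIs of the class. Without it the count of called genes was again 6. The macrophage marker list was also lower in this class, at 3574 and 2425 CPM against 18244 and 18465 CPM, and the digestion-sensitive genes were higher, at 2194 and 3899 CPM against 866 and 941 CPM. Their part in these ratios was not tested.

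Lyve1-high macrophages differed from other macrophages in 4 of the 8 genes by the same rule. Tlr4 was called higher, with a ratio of 1.75 (0.809 to 3.37) in the female and 1.64 (0.937 to 2.73) in the male library. As given above, it was not higher without the 5 cells with most Tlr4 UMIs in each class, a removal that weighs more on the smaller class. The call thus rests on few cells. Tlr2, Tlr3 and Tlr13 were called lower, the last at 0.584 (0.264 to 1.13) and 0.232 (0.0841 to 0.516). This was 1 of 8 higher against 13.8% of 4634 genes, and 3 of 8 lower against 15.5%. The 3 lower genes had 2 to 14 UMIs in Lyve1-high cells and passed the minimum only through other macrophages, in which they were higher, so their count is a description. Of the 4 called genes, only Tlr13 in the male library had an interval that left out 1. With a mitochondrial ceiling of 5%, or with every cell given the same weight, 1 gene was called. Cd14 and Ly96 were above other macrophages in the male library, at 1.49 (1.13 to 1.95) and 1.63 (1.09 to 2.38), and at 0.812 and 1.13 times their level in the female library, with intervals that held 1. The Aldh1a2-high macrophage list was at 9179 and 9170 CPM in Lyve1-high cells, the type 2 dendritic cell list at 2113 and 2568 CPM and the neutrophil list at 404 and 605 CPM, against 172615 and 138376 CPM in neutrophils. Their part in these ratios was not tested.

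**Figure D2:**
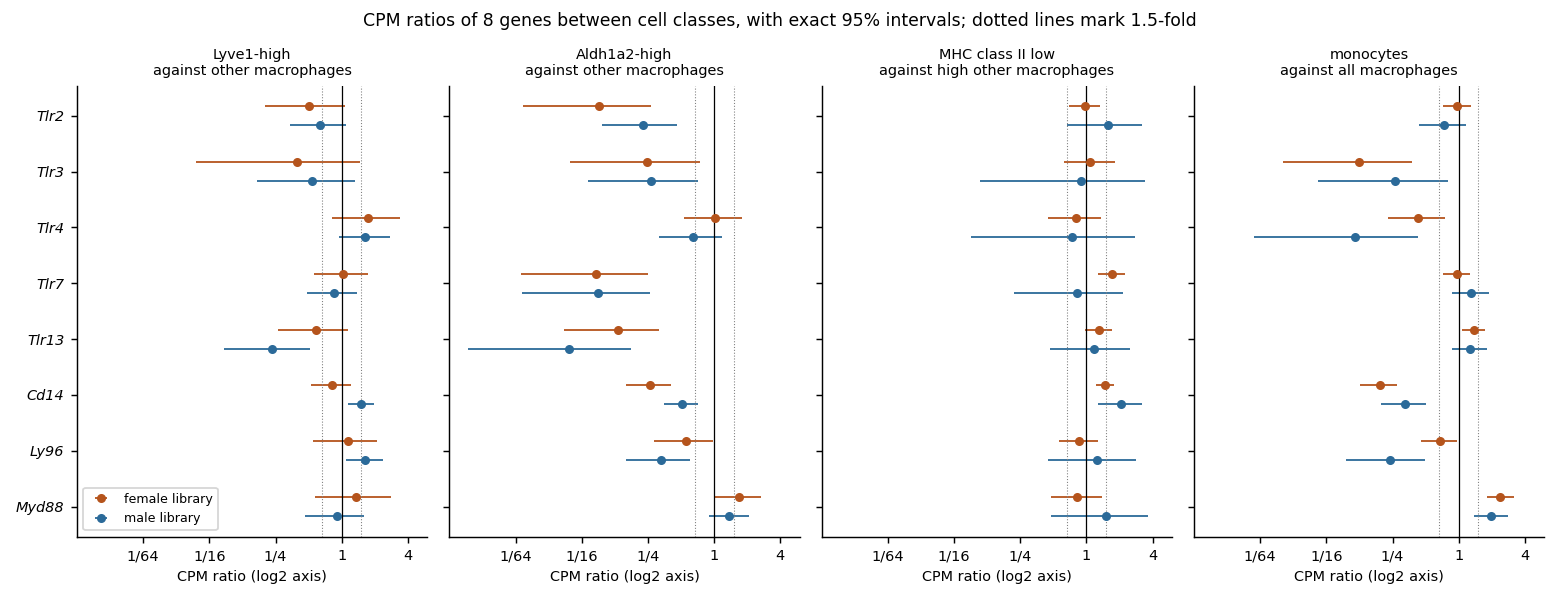
Ratio of CPM between classes for 8 of the genes on a log2 axis, with the female library in orange, the male library in blue, exact 95% intervals as bars and dotted lines at 1.5-fold in either direction. In the second panel 6 genes lie left of the dotted line in both libraries, while Tlr4 and Myd88 do not.

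Within other macrophages, cells with at most 10 UMIs of MHC class II genes among 1000 (121 female and 14 male cells) were compared with those above 10 (376 and 401 cells), leaving out other macrophages with fewer than 1000 UMIs. The boundary of 10 was the best split of the macrophages' own counts. In T and NK cells the 95th percentile was 2 UMIs, so low cells can lie above that background. None of the 8 genes was called, against 2.72% of 4048 genes called higher and 1.83% called lower. Cd14 came closest. It was 286 CPM (244 to 333) in MHC class II low against 193 CPM (172 to 215) in high cells of the female library, a ratio of 1.48 (1.22 to 1.80), and 329 against 159 CPM in the male library, a ratio of 2.07 (1.26 to 3.23). The female ratio thus fell just short of 1.5. Without the 5 cells with most Cd14 UMIs in each class, the levels were 224 against 172 CPM and 171 against 140 CPM. In male MHC class II low cells these were 5 of 14 cells, with 71.4% of the sum. The digestion-sensitive genes were also higher in MHC class II low cells, at 1077 against 790 CPM and 2081 against 900 CPM, and their part was not tested. Tlr7 was higher in MHC class II low cells of the female library, at 1.69 (1.27 to 2.24), with 4 UMIs and a ratio of 0.815 (0.219 to 2.14) in the male library.

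Monocytes differed from the 3 macrophage classes combined in 4 of the 8 genes. Myd88 was called higher, with ratios of 2.39 (1.79 to 3.18) in the female and 1.98 (1.38 to 2.78) in the male library. Cd14 at 0.191 (0.127 to 0.275) and 0.323 (0.198 to 0.501), Tlr4 at 0.427 (0.226 to 0.748) and 0.115 (0.0137 to 0.425), and Tlr3 at 0.124 (0.0250 to 0.374) and 0.262 (0.0528 to 0.796) were called lower. In monocytes these 3 genes had 2 to 30 UMIs and passed the minimum only through macrophages, in which they were higher, so their count is a description. Tlr7 had ratios of 0.957 and 1.29, Tlr13 of 1.36 and 1.27, and Tlr2 of 0.966 and 0.733. The counts compare with 10.4% of 5759 genes called higher and 15.9% called lower. Leaving out the female Aldh1a2-high cell rich in B cell markers made it 5 called genes, since Ly96, at 0.668 and 0.236, lay at the edge of the rule.

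Between the sexes, macrophages differed by less than 1.5-fold for each of the 8 genes, and none was called, against 2.36% of 6392 genes higher and 4.13% lower in the female library. Tlr7 had the largest ratio of female to male, 1.34 (1.10 to 1.64), followed by Tlr13 at 1.25 (1.03 to 1.52) and Cd14 at 1.21 (1.06 to 1.37), all with intervals above 1. Tlr7 and Tlr13 lie on chromosome X. Within MHC class II high other macrophages alone the ratios were 1.07 (0.842 to 1.37) for Tlr7, 1.03 (0.827 to 1.29) for Tlr13 and 1.21 (1.03 to 1.43) for Cd14. The direction for Cd14 was not shared by all macrophage classes. Other macrophages had a ratio of 1.31 (1.13 to 1.51). Lyve1-high macrophages had 0.712 (0.434 to 1.14) and MHC class II low other macrophages 0.870 (0.551 to 1.44), with intervals that held 1. Aldh1a2-high macrophages had 55.7 female against 84.2 male CPM of Cd14, with overlapping intervals. With all cells thinned to 1000 UMIs the Tlr7 ratio in all macrophages was 0.939. The classes that make up the macrophages had different shares in the libraries, and Aldh1a2-high cells, low in Tlr7 and Tlr13, were 90 of 674 female and 103 of 677 male macrophages, while Lyve1-high cells were 55 and 117. MHC class II low cells, with 139 female and 62.6 male CPM of Tlr7 and 125 and 110 CPM of Tlr13, were 121 female and 14 male cells. The part of these class shares in the sex ratios was not tested. Myd88 had a ratio of 0.787 (0.614 to 1.01).

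In monocytes, Tlr2, Tlr7, Tlr13 and Myd88 had enough UMIs, all 4 through the female library, whose monocytes held 816291 UMIs against 406440 in the male. Tlr2 passed the fold, at 1.57 (0.936 to 2.74) from 63 and 20 UMIs, and since it entered only through the library in which it was higher, this is given as a description. With doublets kept, or with all cells thinned, none was called. The background was 5.32% of 2404 genes higher and 4.99% lower. In classical monocytes the Tlr2 ratio was 2.43 (1.15 to 5.92), from 54 of the 63 female UMIs and 8 male UMIs. Nonclassical monocytes went the other way, at 46.0 female against 65.6 male CPM, with overlapping intervals. The female monocytes held more classical cells (154 of 228) than the male (57 of 127). Tlr13 in classical monocytes had a ratio of 2.20 (1.12 to 4.81). With 1 library per sex, sex and library cannot be told apart.

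**Figure D3:**
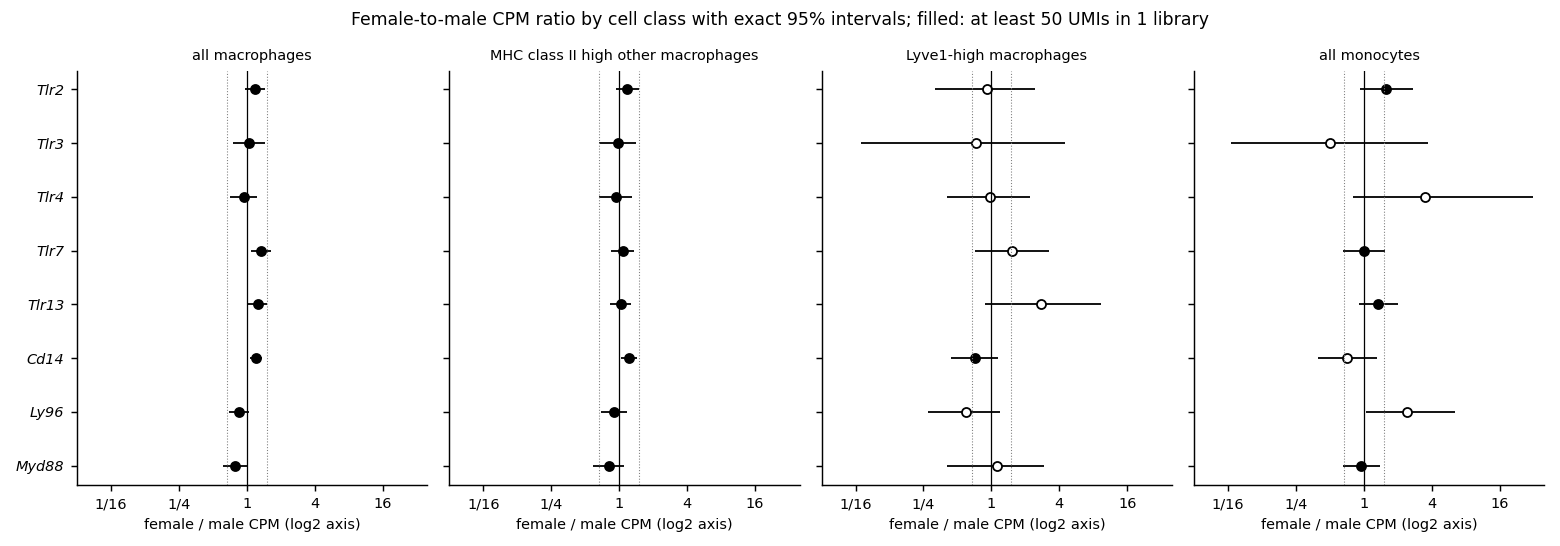
Female to male ratio of CPM for 8 of the genes within 4 cell classes on a log2 axis, with exact 95% intervals as bars, filled points where at least 1 of the libraries had 50 UMIs and dotted lines at 1.5-fold in either direction. In all macrophages every point lies between the dotted lines, and Tlr7 at 1.34 is farthest to the right.

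The other genes of the pathway were followed as a list of 48. In Lyve1-high macrophages 27 could be compared, of which 3 were higher and 8 lower, beside 13.8% and 15.5% of all genes compared. Lyve1-high cells held 148596 and 272618 UMIs against 2283811 and 1879026 in other macrophages. A gene lower in them could thus pass the UMI minimum through other macrophages alone, as Tlr12 and Tlr1 did, so these counts are a description. Tlr12, a receptor for a parasite protein, had no UMI in the female Lyve1-high cells and 1 in the male, against 98 and 147 in other macrophages, and Tlr1, the partner of TLR2, had none and 3, against 88 and 93. Of the 4 inflammatory target genes that could be compared, 3 were lower: Ccl4 had ratios of 0.0559 and 0.0407, Ccl3 of 0.0665 and 0.0663 and Il1b of 0.0983 and 0.0813. Ly86, which encodes MD-1, the partner of the TLR4-like receptor CD180, had ratios of 0.527 and 0.476. Cd36, a scavenger receptor that serves TLR2 as a co-receptor, was higher, at 4.19 (3.56 to 4.91) and 4.02 (3.62 to 4.46), as was Tab2, a subunit of the TAK1 kinase complex, at 2.17 and 1.85.

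In Aldh1a2-high macrophages, 1 of 27 list genes was higher and 10 were lower, beside 12.1% and 19.2% of all genes compared. As for the members, a gene lower in this class could pass the UMI minimum through other macrophages alone, so these counts are a description. Lower again were Tlr1 (ratios of 0.0722 and 0.0919), Tlr12 (0.259 and 0.0291), Ccl4 (0.0848 and 0.0947), Ccl3 (0.0413 and 0.185), Il1b (0.0407 and 0.393) and Ly86 (0.428 and 0.457). Irf7, the transcription factor that TLR7 and TLR9 use to induce interferon, had ratios of 0.0752 (0.00904 to 0.276) and 0.153 (0.0488 to 0.365), and the kinase gene Irak2 had 0.365 and 0.392. Unc93b1, the chaperone that carries endosomal receptors to their compartment, was chosen after its values were seen: its ratios were 0.486 (0.393 to 0.596) and 0.519 (0.435 to 0.616). Among the 5 transcription factors only Irf7 was called, and of 7 adaptors and kinases compared only Irak2. Over the list the median log2 ratio was -0.35, against -0.11 over all genes tested.

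**Figure D4:**
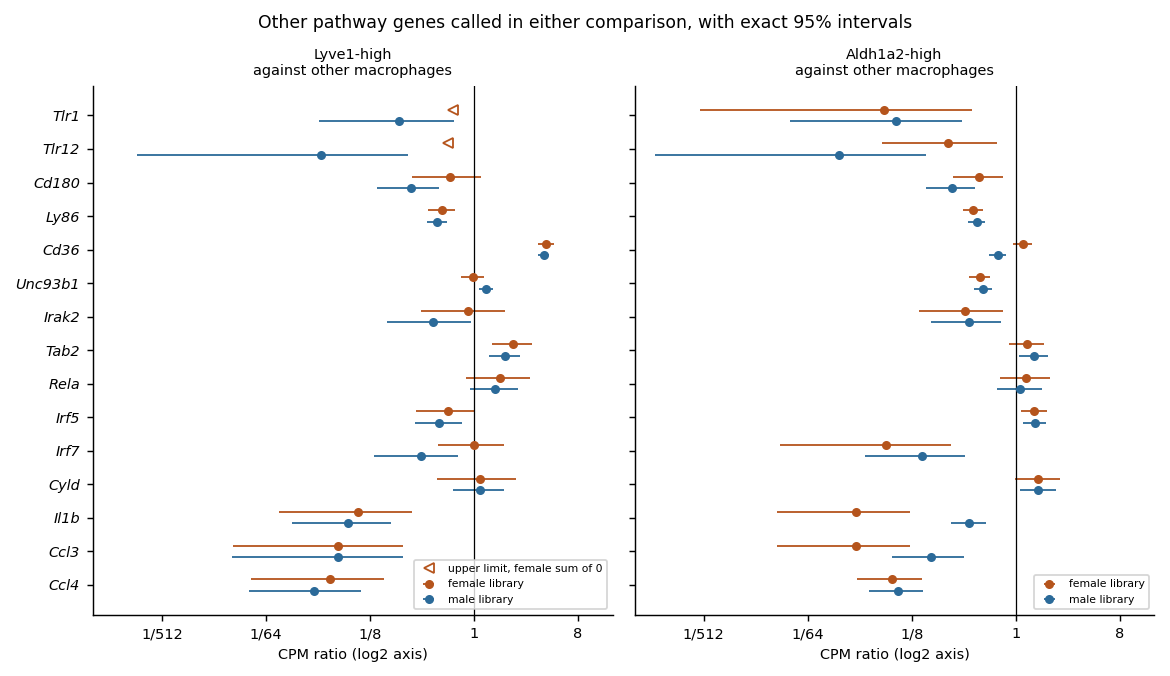
Ratio of CPM to other macrophages in Lyve1-high and Aldh1a2-high macrophages for every pathway gene called in either comparison, on a log2 axis with exact 95% intervals as bars. The female library is orange and the male library blue, and open triangles mark the upper end of the interval where the female sum was 0. Cd36 stands at 4.19 and 4.02 in Lyve1-high cells, and Il1b, Ccl3 and Ccl4 lie left of 1 in both panels.

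Within other macrophages, the chemokine genes Cxcl2 (ratios of 2.37 and 3.25) and Ccl3 (1.63 and 6.52) were higher in MHC class II low cells, and none of the 25 list genes compared was lower, beside 2.72% and 1.83% of all genes compared. The male ratios rest on 14 MHC class II low cells that held 63916 UMIs, so few cells can carry them. The digestion-sensitive genes were higher in the same cells, as given above, and their part was not tested. With a mitochondrial ceiling of 5% no list gene was called. In monocytes against macrophages, 8 of 28 list genes were higher and 5 lower, beside 10.4% and 15.9% of all genes compared. A list gene lower in monocytes could pass the UMI minimum through the larger macrophage sums alone, so these counts are a description. The digestion-sensitive genes summed to 2859 and 4033 CPM in monocytes and 1113 and 1569 CPM in macrophages, higher in the male library in both, and their part in the comparisons of classes or sexes was not tested. Higher were, among others, Irf7 at 3.81 and 2.77 and Nfkb1, which encodes an NF-kB subunit, at 2.92 and 3.37, both chosen after their values were seen. Between the sexes, 1 of 34 list genes was higher and 3 were lower in female macrophages, beside 2.36% and 4.13% of all genes compared. In female monocytes 1 of 14 was higher and 5 were lower, beside 5.32% and 4.99%. In both comparisons a gene could pass the UMI minimum only through the library in which it was higher, so these counts are a description.

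Genes whose levels followed those of the members most closely over 13 classes in 2 libraries were ranked by Pearson's r of log2 levels among 8684 genes. The 26 points share libraries and depth, so r is a description. Tlr3 was followed most closely by Plpp1 (r = 0.870), 2310040G24Rik and Atpif1, Tlr13 by Lst1 (r = 0.911), Slc11a1 (r = 0.901) and Sat1, Cd14 by Clec4a2 (r = 0.917), Hacd4 and C5ar1, and Tlr2 by Oasl2 (r = 0.897), Stard9 and Cd300c2. Tlr4 was nearest to Timp2 (r = 0.878), C1qc and Gna12, Tlr7 to Lair1 (r = 0.846), Tom1 and Rab14, and Ly96 to Slc37a2 (r = 0.835), Blvrb and Mitf. C1qc and Lair1 are markers that were used to place cells in classes. Myd88 was followed by Dusp1 (r = 0.954), which is 1 of the digestion-sensitive genes, Rgs2 and Sem1.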

How the data were processed

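Droplet libraries of sorted CD45+ adrenal cells, 1 female and 1 male, were analysed from the raw UMI counts per gene and cell that the authors deposited. Per the submitters' processing notes, Cell Ranger 4.0.0, DropletUtils 1.4.3 and mm10 were used; the annotation release is not given in the sources used here. Barcodes with at least 200 genes and at most 15% mitochondrial UMIs were kept. Scrublet's own threshold (scanpy 1.11.5) marked 9 of 6648 barcodes, so the highest scores were removed at 0.8% per 1000 barcodes (123 female and 53 male). A cell joined the class whose marker list had the highest mean z score, with at least 3 markers detected and a lead of 0.25; these thresholds were set after marker distributions, not the members' values, had been seen. UMIs were summed per class and library and divided by the class total (CPM). Intervals were exact Poisson for levels, Clopper-Pearson for shares and conditional binomial for ratios, at 95%, and a sum of 0 entered medians at 3 counts. Gene positions are from GENCODE vM21 on GRCm38.

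The members and lists were chosen with earlier results of these data known. Named pathway genes were those called in a macrophage subset comparison, at most 8 each by the smaller of their 2 log2 ratios, and, for each member with at least 100 UMIs, the 3 genes with at least 200 UMIs most like it over log2(CPM + 10). Alternatives changed the mitochondrial ceiling, doublets, gating, the MHC class II boundary, gene minimum, weighting, denominator, depth, fold and UMI minimum.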

Additional observations from a re-analysis of the deposited data

How the results depend on the processing

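The results rest on 1 library per sex, and many member sums hold under 50 UMIs. No paired analysis was possible because there is 1 library per group. Over all settings, 118 counts of called genes stayed within 1.5 times the main count and 30 did not. Of the ratios, 1150 stayed within their main interval and 73 left it. Another 4, all of called genes and all under a mitochondrial ceiling of 1.2%, were counted as turned in direction. These 4 leave out turns given above, such as Tlr7 between the sexes with thinned cells and Tlr4 in Lyve1-high cells without the top 5 cells. Of the CPM levels 2517 stayed within their main interval and 417 left it, 161 of the latter without the 5 cells with most UMIs of the gene, and 608 shares stayed while 238 moved, 103 with thinning to 2000 UMIs and 126 without thinning. A mitochondrial ceiling of 1.2% was tried because the methods of the study name that value, but the scale on which it was meant is unsure. Taken as a percent of UMIs, it kept 323 female and 354 male cells, among them 3 and 1 Lyve1-high macrophages. With it the female to male ratio of Tlr2 in all monocytes was 0.773, and the Lyve1-high to other macrophage ratio was 2.55 for Tlr3 in the female library and 0 for Tlr4 and 4.50 for Tlr13 in the male library. It left 0 members called in female against male monocytes, in Lyve1-high, in Aldh1a2-high and in monocytes against macrophages, where the main counts were 1, 4, 6 and 4. Of list genes it left 2 in the sex comparison of macrophages, 2 in that of monocytes, 1 in Lyve1-high, 2 in Aldh1a2-high, 0 in MHC class II low cells and 2 in monocytes against macrophages, where the main counts were 4, 6, 11, 11, 2 and 13. A ceiling of 5% gave 2 members in monocytes between the sexes, 1 in Lyve1-high cells and 0 list genes in MHC class II low cells. Keeping doublets or thinning all cells gave 0 members in monocytes between the sexes. The mean of single-cell CPM gave 1 member in Lyve1-high cells, 1 in MHC class II low cells and 4 list genes there. A fold of 2 gave 0 members in monocytes between the sexes and in Lyve1-high cells, and 0, 3, 6, 1 and 6 list genes in macrophages and monocytes between the sexes, Lyve1-high cells, MHC class II low cells and monocytes against macrophages. At least 20 UMIs gave 2 members in monocytes between the sexes, and at least 200 UMIs gave 0 there, 0 in Lyve1-high cells, 1 in Aldh1a2-high cells and 1 in monocytes against macrophages, since fewer genes could be compared. The count of 0 members in macrophages between the sexes held in every setting run. Apart from the 1.2% ceiling and the minimum of 200 UMIs, Aldh1a2-high cells stayed within 1.5 times of 6 members. At a fold of 2, Cd14 and Ly96 were no longer among the called members, by their ratios given above. Leaving out the cell rich in B cell markers was chosen after seeing the data. An MHC class II boundary of 2 UMIs, taken from T and NK cells, moved 6 of 18 member ratios out of their main intervals. Clusters of a neighbour graph named no type 1 dendritic cell class, so that setting has no value for it. Without mitochondrial and ribosomal protein genes in the total, the median log2 ratio of all genes was -0.10 in Lyve1-high and -0.14 in Aldh1a2-high cells.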
